A study of Mus musculus with 12 samples.

Results

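The transcript response to TNF of macrophages carrying a myeloid deletion of Klf6 is described here. It was measured in 6 of the 12 RNA-sequencing libraries of the series: 3 libraries of untreated and 3 of TNF-treated Klf6fl/fl:Lyz2cre bone marrow-derived macrophages. The libraries were chosen by genotype and treatment in their labels, and the genes are the 19868 listed in both deposited tables. With TNF, all 20 listed genes for NF-kB subunits and inhibitors rose, as did the chemokine genes Cxcl1, Cxcl2 and Cxcl3 and the genes that make itaconate and prostaglandin E. Most genes of the cell cycle, the ribosome and the uptake of dying cells fell, as did the activating Fc receptors for IgG. Interferon-stimulated genes mostly rose, with a median log2 change of 0.54, and in macrophages of the control genotype the same genes had a median of 3.65.

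TNF is a cytokine that macrophages both make and sense. Its receptors recruit adaptor proteins and ubiquitin ligases that release NF-kB transcription factors from their inhibitors, and NF-kB then drives inflammatory genes together with the genes of its own inhibitors, which limit the response. In macrophages TNF can also induce interferon-β, which acts back on the cells through JAK kinases and STAT factors and switches on interferon-stimulated genes. KLF6 belongs to the Krüppel-like factors, which bind DNA through zinc fingers, and has been studied as a regulator of inflammatory gene expression in macrophages.

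The study grew macrophages from mouse bone marrow and sequenced their total RNA after removal of ribosomal RNA, with 3 libraries in each of 4 groups. The Klf6-deleted groups, Klf6fl/fl:Lyz2cre, carry floxed alleles of Klf6 and the Lyz2cre driver, and 1 group was left untreated while the other received 10 ng/ml TNF for 6 h. The control genotype, Lyz2cre, carries the driver without the floxed alleles, and was handled in the same 2 ways. Lyz2cre expresses Cre recombinase from the lysozyme 2 gene, which is active in macrophages, monocytes and neutrophils, so the deletion can be incomplete and other cells in a culture keep Klf6. The labels give no age, sex or strain. They also leave unsaid if replicate libraries stem from different mice or dishes, and every p-value here is relative to the scatter among those libraries, which may be technical. Each condition was deposited in a table of its own, so the effect of TNF and anything else that differed between the tables cannot be told apart.

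Depth was 16.9 to 23.4 M gene-assigned reads a library, with reads on 19880 to 20169 genes in the untreated and 18231 to 18341 in the TNF libraries. Klf6 was at 6974, 7328 and 6829 normalized counts in the untreated and 5168, 5053 and 5079 in the TNF libraries (log2 change -0.47, standard error 0.0386, adjusted p = 9.5e-08, limma), so every TNF library lay below every untreated one. The Klf6 gene (ENSMUSG00000000078; chromosome 13, 5861482 to 5870394, plus strand, in the GENCODE annotation of GRCm38) has 1 value per library for the whole gene, and the floxed exons are not named in the labels, so the value is not a direct measure of the deletion. On the scale common to all 12 libraries its level was 6431, 6755 and 6294 in untreated Klf6-deleted and 9119.8, 9008 and 9314 in untreated Lyz2cre cells, with no overlap. Lyz2, the gene that carries Cre, went from 234, 208 and 285 to 1240.2, 989 and 1196 (log2 change 2.24, limma adjusted p = 3.4e-10). Lyz2 can share reads with its near-identical neighbour Lyz1 and is therefore uncertain. Of the macrophage markers, Csf1r was at 44996, 41327 and 46377 untreated and 97694, 96132 and 99760.2 with TNF, and Adgre1, which encodes F4/80, was at 35623, 33669.9 and 34318 untreated and 32637, 32163 and 30905 with TNF. Cd68, Itgam, Mertk, Cd14, Spi1 and Tyrobp were also read in every library, the lowest value of these 6 being 315 for Mertk with TNF, so all 8 markers of the labelled cell type were present.

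Across the 12727 genes with at least 1 CPM (counts scaled to library size) in at least 3 of the 6 libraries, 4430 rose with TNF (34.8%) and 4451 fell (35.0%) at an adjusted p below 0.05 (limma with Benjamini-Hochberg adjustment), which is 69.8% of the genes in all. Changes of at least 2-fold were 756 rises (5.94%) and 2064 falls (16.2%). All 3 TNF libraries lay above all 3 untreated ones for 36.8% of genes and below them for 36.5%. The median log2 change over all genes was 0.01. With the values as deposited, each table on its own scale, this median was -0.29, and 1891 genes rose and 7140 fell. Directions and counts below are on the joint scale, and normalized counts are reads divided by a library factor common to the 6 libraries.

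The 10 largest rises among genes with a mean of at least 100 normalized counts in the higher group were Cxcl3, Clec4e, H2-M2, Olr1, Gpr84, Acod1, Tarm1, Ptges, Ifi205 and Rasgrp1. Cxcl3, a chemokine that attracts neutrophils (chromosome 5, 90786103 to 90789600), was at 15.8, 9.87 and 14.5 normalized counts untreated and 3527, 3224 and 3015 with TNF, a 230.0-fold rise on the log2(value + 1) scale (standard error 0.148 log2, limma adjusted p = 1.2e-14). Clec4e encodes Mincle, a C-type lectin that senses microbial glycolipids and material of dying cells (chromosome 6, 123281789 to 123289870). It went from 468, 487 and 699 to 80723, 74992 and 73429.9, 140.5-fold (standard error 0.108 log2, limma adjusted p = 1.9e-15). Olr1, which encodes LOX-1, a receptor for oxidized low-density lipoprotein, was at 4.15, 9.87 and 10.5 before and 1176, 1060.0 and 1159 after TNF. Gpr84, a receptor for medium-chain fatty acids, was at 14.1, 14.8 and 22.5 and 2147, 2331 and 2408. Both genes were barely read in untreated libraries, and their TNF libraries were all far above these. H2-M2, a class I-like MHC gene, was at 11.6, 18.7 and 15.3 and 2284, 2101 and 2132. Tarm1, an activating receptor of myeloid cells, was at 3.32, 0.987 and 5.63 and 340.4, 328 and 310.1. Rasgrp1, an exchange factor that activates Ras, was at 24.1, 27.6 and 21.7 and 1304, 1243 and 1142. Only genes whose conditions did not overlap could be among these 10, or among the 10 largest falls.

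The 10 largest falls were Ltf, Ngp, Mpo, Islr, Rspo2, Dkk3, Sfrp4, Ogn, Mme and Slco2b1. Ltf, encoding the neutrophil granule protein lactoferrin, was at 744, 607 and 701 untreated, and the TNF libraries held 1 read in all against 2383 untreated. That is a ratio of 1797 with a 95% interval of 322 to 71016, which covers counting error only. Ngp, another granule protein gene, went from 2478, 2359.8 and 2376 to 2.29, 6.67 and 14.3, and Mpo, the myeloperoxidase of neutrophil and monocyte precursors, from 570.2, 622 and 594 to 3.44, 0 and 1.19. Islr, a gene of mesenchymal cells, had 842 untreated reads and 3 with TNF, a ratio of 212 with a 95% interval of 72.2 to 1028. Rspo2, Dkk3 and Sfrp4 encode secreted modulators of Wnt signalling, and Ogn a small leucine-rich proteoglycan of the matrix. Rspo2 went from 997, 937 and 930.5 to 4.58, 5.56 and 13.1, Dkk3 from 1255, 1222 and 1245 to 6.88, 10.0 and 14.3, and Ogn from 1032, 961 and 974 to 10.3, 6.67 and 8.35. Genes typical of granulocytes, precursors and mesenchymal cells made up most of these 10, and in bulk RNA fewer cells of a type and less RNA per cell cannot be told apart. Mme, the cell-surface peptidase neprilysin, went from 291, 263 and 261 to 1.15, 2.22 and 3.58, and Slco2b1, an organic anion transporter, from 853, 848 and 871 to 4.58, 17.8 and 9.54.

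**Figure D1:**
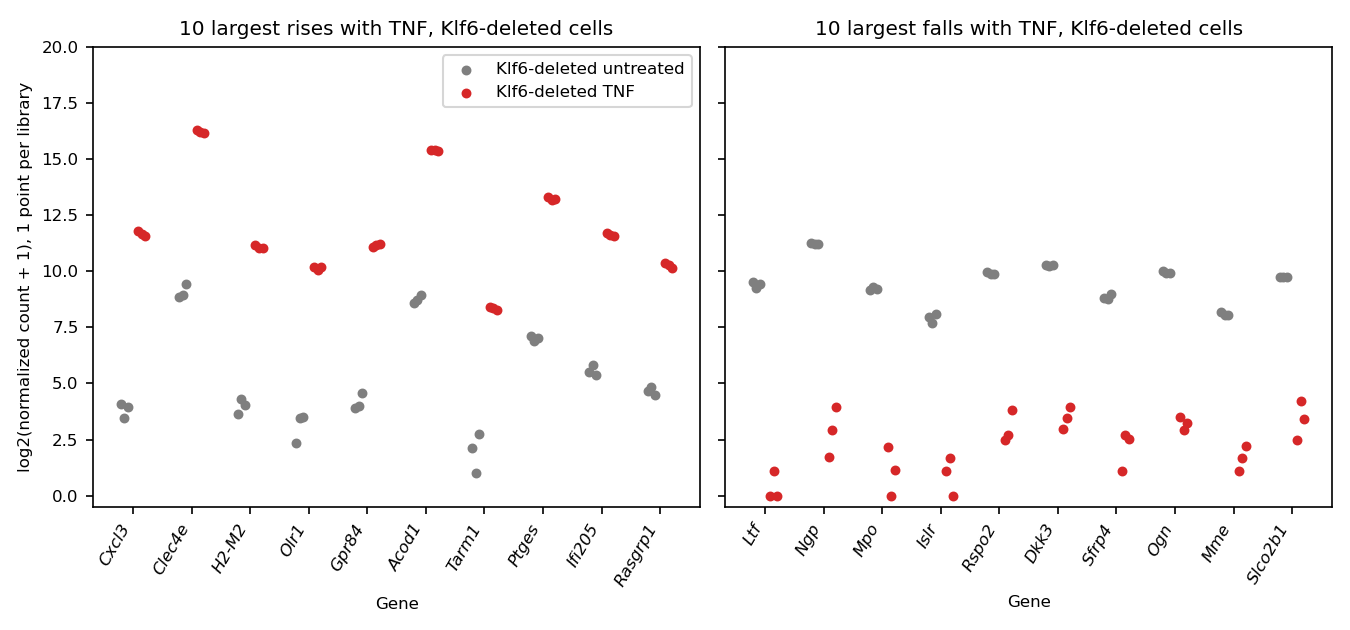
Levels of the 10 genes that rose most (left) and fell most (right) with TNF in Klf6-deleted macrophages, as log2(normalized count + 1) on the vertical axis. Each point is 1 library, gray untreated and red with TNF (3 each). Only genes whose 3 red points lie on 1 side of the 3 gray points could be chosen. Cxcl3 goes from at most 15.8 untreated to at least 3015 with TNF.

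Of 20 genes for NF-kB subunits and feedback inhibitors, all 20 rose, against 34.8% of all genes tested, and 14 rose at least 2-fold, against 5.94%. Their median log2 change was 1.52, and the smallest was 0.36. The inhibitors Nfkbie and Nfkbia changed most. Nfkbie, encoding IκBε, went from 378, 406 and 421 to 7079.9, 6957 and 7292 normalized counts (log2 change 4.14, standard error 0.0515, adjusted p = 5.4e-16, limma). Nfkbia encodes IκBα, which holds NF-kB in the cytosol, and went from 1042, 992 and 1146 to 12109, 11953 and 11846 (log2 change 3.50, standard error 0.0501, adjusted p = 1.5e-15, limma). Tnfaip3, a ubiquitin-editing enzyme that damps TNF signalling, was at 1017, 1106 and 1114 untreated and 8476, 8608 and 8871 with TNF. Of the subunits, Nfkb2 and Relb, which form the dimer of the slower non-canonical branch, rose 8.44-fold and 7.06-fold. The canonical subunit Rela rose less, from 2906, 2859 and 2936 to 6838, 7103 and 7071 (2.41-fold), and Rel was at 1259.8, 1154 and 1124 and 1557, 1598 and 1609.9 (1.35-fold). Every TNF library lay above every untreated one for all 20 genes, against 36.8% of all genes tested.

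The promoters of genes on which the comparisons turn were read from RefSeq sequences (GRCm38.p6) to show their NF-kB and interferon-response letters. Of the 20 NF-kB genes 16 had a promoter in the table, and 10 of them (62.5%) held a match to the kappa B consensus on either strand between 250 bases before and 50 after the start, against 5.14% of all 27025 genes in the table and 6.16% of the 9659 tested genes that were in it. That consensus was added after the search was planned. The form planned first, GGG and CC separated by any 5 bases, is looser. It was in 81.3% of the 16, 53.5% of all genes and 71.9% of tested genes. A pair of GAAA blocks separated by any 2 bases, a core of the interferon-stimulated response element, was in 0 of the 16, in 19 of the 35 matched interferon-stimulated genes (54.3%) and in 9 of the 9 matched guanylate-binding protein and immunity-related GTPase genes, against 3.99% of all genes and 4.04% of tested genes. A match describes letters and is not evidence of binding. In the lines below capitals mark matches to the kappa B consensus or to the GAAA pair on either strand, including overlapping ones, in the 200 bases before the start, written 5′ to 3′ on the gene's strand. Nfkbia (chr12:55492648-55492847, minus strand) and Cxcl3 (chr5:90785901-90786100, plus strand) represent inflammatory genes with kappa B letters, Isg15 (chr4:156200819-156201018, minus strand) interferon-stimulated genes, and Cxcl10 (chr5:92348890-92349089, minus strand) and Gbp5 (chr3:142496734-142496933, plus strand) genes that rose here and much more in the control genotype.
Nfkbia: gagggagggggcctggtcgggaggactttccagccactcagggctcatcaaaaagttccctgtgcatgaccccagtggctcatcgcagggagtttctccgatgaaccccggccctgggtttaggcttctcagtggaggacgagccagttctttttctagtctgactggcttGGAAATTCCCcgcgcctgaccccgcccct
Cxcl3: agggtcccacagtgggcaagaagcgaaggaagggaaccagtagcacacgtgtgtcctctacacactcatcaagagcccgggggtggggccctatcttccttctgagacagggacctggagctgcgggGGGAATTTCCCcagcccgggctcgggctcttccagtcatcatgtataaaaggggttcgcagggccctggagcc
Cxcl10: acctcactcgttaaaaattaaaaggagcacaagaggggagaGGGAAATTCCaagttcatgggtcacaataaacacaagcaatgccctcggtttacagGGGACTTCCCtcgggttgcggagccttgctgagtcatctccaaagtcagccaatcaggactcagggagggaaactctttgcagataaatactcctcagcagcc
Gbp5: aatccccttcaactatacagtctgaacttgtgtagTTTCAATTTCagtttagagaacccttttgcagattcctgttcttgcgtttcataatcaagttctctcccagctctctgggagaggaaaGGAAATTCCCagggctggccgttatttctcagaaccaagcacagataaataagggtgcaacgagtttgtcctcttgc
Isg15: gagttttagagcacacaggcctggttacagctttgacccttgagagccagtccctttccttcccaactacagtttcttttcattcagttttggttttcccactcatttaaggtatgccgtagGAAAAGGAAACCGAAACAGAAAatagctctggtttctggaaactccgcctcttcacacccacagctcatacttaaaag

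Cxcl3 holds 2 overlapping kappa B matches and Nfkbia 1, each within the last part of the stretch before the start. Cxcl10 holds 2 separate kappa B matches, Gbp5 1 kappa B match and 1 GAAA pair on the reverse strand, and Isg15 3 overlapping GAAA pairs and no kappa B match. The genes shown were chosen after their values were seen.

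Of 22 genes for TNF, its receptors and proximal signalling, 17 rose and 2 fell, and 11 rose at least 2-fold. Over all genes tested 34.8% rose and 35.0% fell, with 5.94% rising and 16.2% falling at least 2-fold. The list counts that follow are to be read against these shares. Tnf itself (chromosome 17, 35199381 to 35202007) went from 266, 278 and 220.4 to 5224, 4590.0 and 4559 normalized counts (log2 change 4.23, standard error 0.0824, adjusted p = 1.6e-14, limma). Traf1, an adaptor at TNF receptor 2, had the largest change, from 157, 213 and 189 to 6859, 7262 and 6813 (37.5-fold). The receptors differed from each other. Tnfrsf1b, encoding TNF receptor 2, rose 4.74-fold, from 16519.8, 15376 and 16177 to 75791, 75199.7 and 76751. Tnfrsf1a, encoding the ubiquitous TNF receptor 1, was at 3435, 3537 and 3847 and 3362, 3384 and 3352 and did not pass the test (log2 change -0.10, limma adjusted p = 0.072). Birc3, a ubiquitin ligase of the receptor complex, rose 9.20-fold, and Cflar, which restrains caspase 8, 4.57-fold. Ripk1 and Tab1 were the members that fell, with log2 changes of -0.35 and -0.39.

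CXC chemokines went in both directions: of 11 tested, 5 rose and 5 fell, against 34.8% and 35.0% of all genes. Each of these changes was at least 2-fold. The list median was -0.06, and turned to 0.06 without untreated replicate 3 and to 1.57 with a filter of 10 CPM. Besides Cxcl3, the neutrophil chemokines Cxcl2 and Cxcl1 rose 34.1-fold and 6.05-fold. Cxcl2 went from 95.4, 96.7 and 126 to 3809.9, 3627 and 3439 normalized counts and Cxcl1 from 45.6, 41.4 and 83.6 to 321, 354 and 323. Cxcl10, a ligand of CXCR3 on T cells, went from 118, 129 and 82.0 to 729, 669 and 613 (log2 change 2.62, standard error 0.145, adjusted p = 1e-09, limma). Cxcl9, another CXCR3 ligand, moved the other way, from 129, 101 and 109 to 49.3, 36.7 and 26.2 (log2 change -1.60, limma adjusted p = 2.7e-05). Cxcl12, a chemokine made chiefly by stromal cells, fell 58.7-fold, from 3682, 3979 and 4174 to 73.4, 53.3 and 73.9, and Cxcl5, another chemokine that attracts neutrophils, fell from 578, 545 and 876 to 72.2, 88.9 and 65.6.

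Among CC chemokines 4 rose and 6 fell of 11 tested, against 34.8% and 35.0% of all genes. Ccl5, which recruits T cells and monocytes, rose 18.1-fold, from 148, 155 and 141 to 2939.9, 2820.0 and 2361. Ccl22, a ligand of CCR4, rose from 20.7, 34.5 and 19.3 to 177, 160.0 and 147, and Ccl9 from 9446, 9185 and 10468 to 27744, 26964 and 25794. The ligands of CCR2, which draw monocytes from the blood, were lower with TNF. Ccl2 went from 322, 404 and 454 to 179, 152 and 189.6, Ccl7 from 224, 291 and 322 to 79.1, 97.8 and 129, and Ccl12 from 21.6, 26.6 and 21.7 to 2.29, 1.11 and 4.77. These 3 falls had log2 changes of -1.17, -1.46 and -2.82 (limma adjusted p = 2.1e-06, 5.3e-06 and 0.00023).

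Chemokine receptors also went in both directions: 4 rose and 6 fell of 11 tested, against 34.8% and 35.0% of all genes. The list median of -1.38 turned to 0.05 without untreated replicate 3, when 4 rose and 4 fell. In that fit genes below 1 CPM in every TNF library, such as Cxcr3, were not tested. Ccr2 itself fell 11.7-fold, from 3978, 3783 and 4444 to 306, 387 and 352. Ccrl2, a non-signalling receptor that binds chemerin, rose 12.0-fold, from 625, 709 and 559 to 7748, 7304 and 7512. Low levels with TNF were reached by Cxcr3, from 99.6, 85.8 and 78.0 to 4.58, 7.78 and 3.58, and Ackr3, from 49.0, 26.6 and 34.6 to 9.17, 1.11 and 3.58.

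Of the interleukin and colony-stimulating factor genes 14 were tested, 7 rose and 4 fell, against 34.8% and 35.0% of all genes. The list median of 0.21 turned to -0.10 with the values as deposited. Il1b, encoding the fever cytokine interleukin-1β, was at 19.1, 20.7 and 57.1 untreated and 226, 206 and 218 with TNF (log2 change 2.89, standard error 0.313, adjusted p = 1.6e-06, limma). Untreated replicate 3 was the highest of its group, and still lay below every TNF library. Tnfsf9, the ligand of the T cell receptor 4-1BB, rose from 72.2, 95.7 and 97.3 to 469.9, 547 and 469. Il10, an anti-inflammatory cytokine, fell from 58.1, 52.3 and 67.6 to 9.17, 11.1 and 8.35 (log2 change -2.52, limma adjusted p = 3e-06). Csf1, the growth factor that maintains macrophages, fell 4.46-fold, from 3372, 3502 and 3139.6 to 691, 710.0 and 849. Csf1r, its receptor, rose 2.21-fold (limma adjusted p = 1.8e-11). Il6, Il12b, Il23a and Csf2 were among the 10 of the 24 listed that were not tested, as too low or not in both tables.

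**Figure D2:**
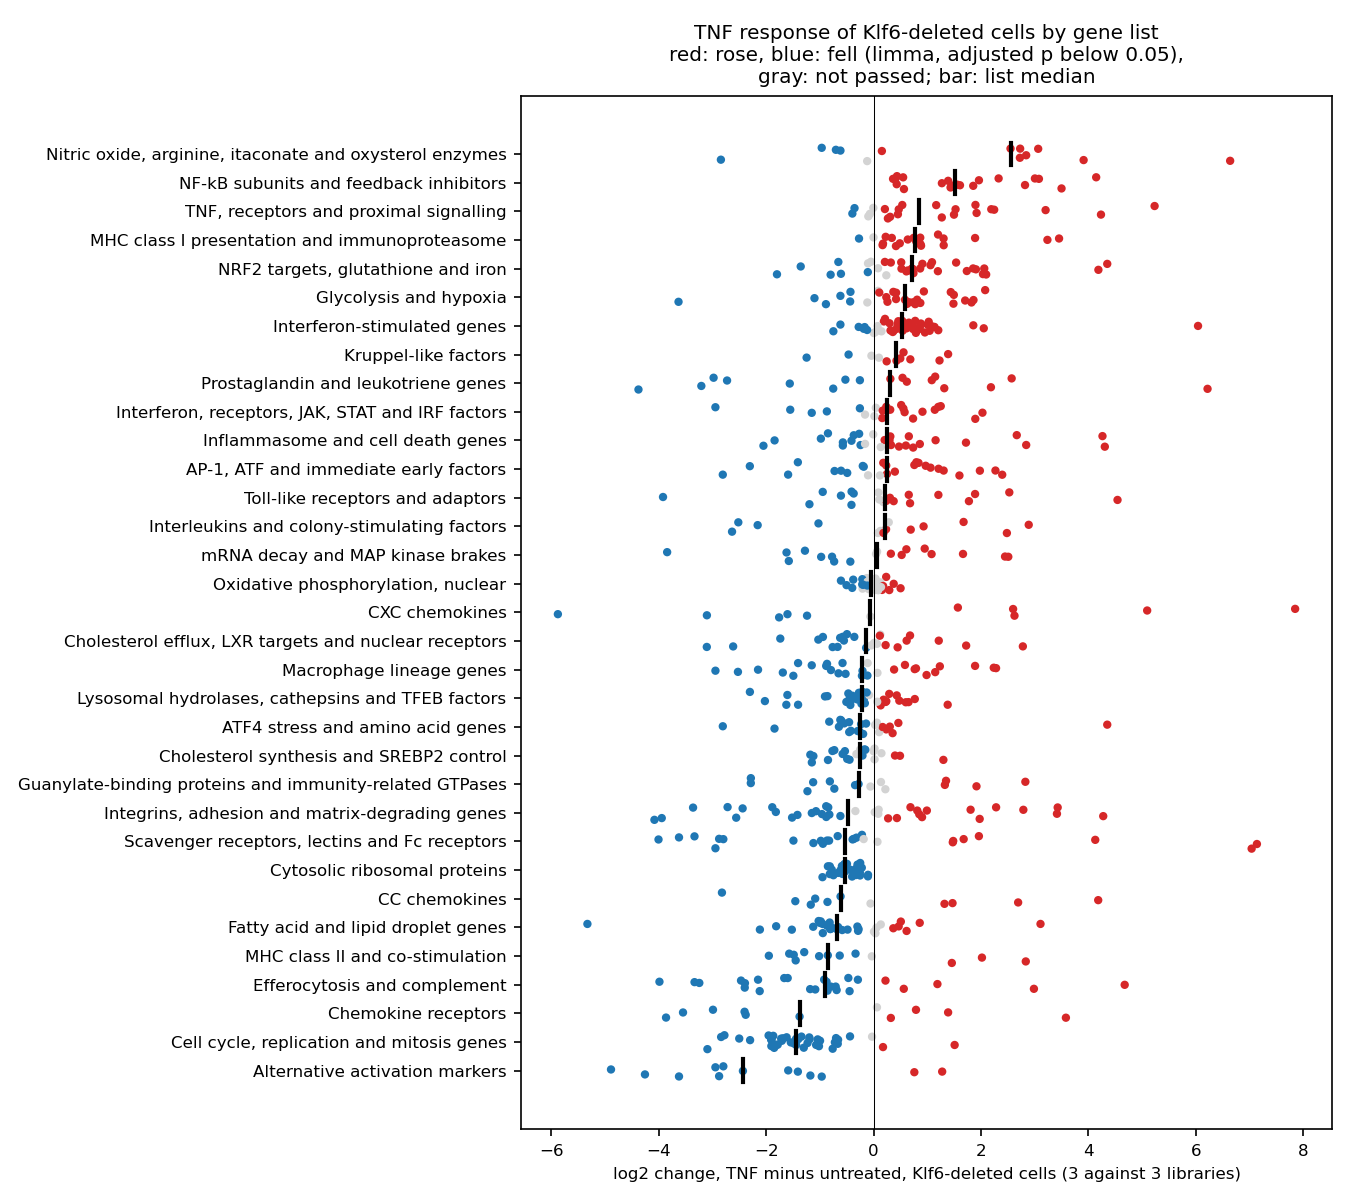
Log2 change with TNF of every tested member of 33 gene lists in Klf6-deleted macrophages (horizontal axis), 1 point per gene, with lists ordered by their median (black bar). Red points rose and blue points fell at a limma adjusted p below 0.05, and gray points did not pass. The NF-kB list is red throughout (20 of 20), the cytosolic ribosomal protein list blue throughout (34 of 34), and the chemokine lists hold strong changes on both sides.

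Most interferon-stimulated genes rose, the majority by less than 2-fold: 36 rose and 6 fell of 46 tested, against 34.8% and 35.0% of all genes. By at least 2-fold 9 rose and 0 fell, against 5.94% and 16.2% of all genes. The median log2 change was 0.54. Ifi205, of the HIN-200 family of DNA-binding proteins and with close paralogs that can share its reads, stood apart at 44.8, 55.2 and 41.0 untreated and 3293, 3107 and 3003 with TNF (log2 change 6.04, standard error 0.103, adjusted p = 5.1e-15, limma). The next largest was Ifit1, which binds viral RNA, from 848, 856 and 906 to 3544, 3748 and 3532 (4.14-fold). Isg15, a ubiquitin-like modifier, went from 647, 588 and 710.1 to 1670.0, 1637 and 1212 (2.30-fold), with TNF replicate 3 below the other TNF libraries. Others lay close to their untreated level. Ifi44 was at 593, 526 and 577 and 555, 628 and 522 and did not pass (log2 change 0.01, limma adjusted p = 0.96), and Mx1, a GTPase that blocks viral replication, fell by 0.17 on the log2 scale, from 989, 1089 and 971 to 884, 934 and 897.

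The guanylate-binding proteins and immunity-related GTPases, which attack the vacuoles of intracellular microbes, were split. Of 15 tested 4 rose and 8 fell, against 34.8% and 35.0% of all genes, and the list median was -0.28. Gbp5 went from 145, 235 and 165 to 1339, 1230.0 and 1233 (log2 change 2.83, standard error 0.134, adjusted p = 1.8e-10, limma) and Gbp2 from 1574, 2188 and 1547 to 4568, 4502 and 4284 (2.55-fold). Gbp6 went from 171, 243 and 219 to 791, 792 and 786 (3.77-fold). Against these, Gbp4 fell from 180.1, 249.6 and 182 to 99.7, 94.4 and 82.3 (log2 change -1.12, limma adjusted p = 1.7e-05) and Iigp1 from 1332, 1941 and 1207 to 406, 274 and 241 (log2 change -2.28, limma adjusted p = 4.8e-08). Untreated replicate 2 was the highest untreated library for all 5 of these genes. Gbp and Tgtp genes lie in clusters of near-identical copies that can share reads, so single members are uncertain.

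Upstream of them, 15 rose and 5 fell of 23 interferon receptor, JAK, STAT and IRF genes, against 34.8% and 35.0% of all genes. The list median of 0.25 turned to -0.05 with the values as deposited. Ifnar1, a chain of the type I interferon receptor, rose 2.38-fold, from 3094, 3206 and 3246 to 7460.5, 7312 and 7954, and Jak2 3.72-fold, from 1104, 1075 and 1076 to 4033, 3908 and 4163. Stat2, which carries interferon signals, fell from 4598, 4657 and 4425 to 3693, 3922 and 3852 (log2 change -0.25, limma adjusted p = 7e-05). Irf7, which amplifies interferon production, rose 1.88-fold and Irf1 1.43-fold. Irf4 and Irf8, factors of myeloid differentiation, fell by 2.94 and 1.15 on the log2 scale. Socs3, a feedback inhibitor of JAK signalling, rose 4.07-fold, from 308, 330.5 and 468 to 1543, 1471 and 1429. Ifnb1 was too low to enter the test.

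MHC class I presentation rose nearly as a whole: 18 of 20 genes rose, against 34.8% of all genes. Of the others 1 fell and 1 did not pass, and the list median was 0.77. H2-K1, a classical class I heavy chain, went from 48373, 46007 and 48556 to 120078, 120237 and 112429.8 (2.47-fold). H2-Q6 and H2-Q7 rose 10.9-fold and 9.42-fold, and class I genes are near-identical copies whose reads can be split. Psme2, an activator of the immunoproteasome, rose 2.47-fold, while its subunit gene Psmb9 rose 1.12-fold and the peptide transporter Tap1 1.27-fold. Nlrc5, the class I transactivator, was the member that fell (log2 change -0.27, limma adjusted p = 0.00067).

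Class II genes mostly fell and co-stimulatory genes were mixed: 3 rose and 9 fell of 13, against 34.8% and 35.0% of all genes. The list median was -0.85. H2-Aa and H2-Eb1, chains of the class II molecules, fell from 3751, 3613 and 3876 to 1292, 1436 and 1289 and from 3297, 3315 and 3506 to 1052, 1291 and 1076. H2-DMa, which loads peptide onto them, fell 3.86-fold, and Ciita, their master regulator, fell by 1.01 on the log2 scale (limma adjusted p = 5.1e-06). Cd40, a co-stimulatory receptor of the TNF receptor family, rose 7.12-fold, from 178, 211 and 234 to 1569, 1538 and 1338. Icosl rose 4.05-fold and Cd274, encoding PD-L1, 2.74-fold.

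Among Toll-like receptor and adaptor genes 10 rose and 7 fell of 20, against 34.8% and 35.0% of all genes. The list median of 0.21 turned to -0.09 with the values as deposited. Tlr2, a sensor of bacterial lipopeptides, rose 23.3-fold, from 710.4, 665 and 851 to 17451, 16521 and 17623. Tlr9, the endosomal sensor of DNA, fell 15.1-fold, from 2309, 2014 and 1879 to 124, 131 and 153. Cd14, a co-receptor for lipopolysaccharide, rose from 9503, 8903 and 10140.2 to 35766, 35322 and 34523, and Tlr4, the receptor itself, fell by 0.41 on the log2 scale. Irak3, which damps Toll-like receptor signalling, rose 5.76-fold.

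In the inflammasome and cell death list 15 rose and 10 fell of 28, against 34.8% and 35.0% of all genes. The list median of 0.25 turned to -0.05 with the values as deposited. Nlrp3, the sensor of an inflammasome, went from 1283, 1376 and 1357 to 8536, 8250.0 and 8699.6 (log2 change 2.66, standard error 0.0428, adjusted p = 2.9e-15, limma). Fas, a death receptor, rose 19.2-fold, from 74.7, 75.0 and 97.3 to 1614, 1584 and 1553. Survival genes of the BCL-2 family went in both directions. Bcl2a1d rose from 85.5, 85.8 and 119.8 to 716, 708 and 655, with its near-identical copy Bcl2a1a moving the same way, and Bcl2l1, encoding BCL-XL, fell 4.14-fold, from 2546, 2589.6 and 2639 to 589, 681 and 609. Gsdmd, which forms the pores of pyroptosis, rose 1.82-fold.

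Other brakes and transcription factors were mixed, and are given against 34.8% of all genes rising and 35.0% falling. Of 18 mRNA decay and MAP kinase phosphatase genes 8 rose and 8 fell, and the median of 0.06 turned to -0.04 with scaling to total reads and -0.25 with the values as deposited. Dusp4, a phosphatase of MAP kinases, rose 5.69-fold, and Zc3h12c, of the Regnase family, 5.45-fold. Zfp36l1, which marks AU-rich mRNAs for decay, fell 14.3-fold, from 2205, 2117 and 2480.2 to 139.8, 168 and 165. In the AP-1, ATF and immediate early list 15 rose and 9 fell of 26, and the median of 0.24 turned to -0.06 with the values as deposited. Junb rose from 2445, 2405 and 2679 to 13150.1, 13509 and 12899 and Ets2 from 895, 855 and 906 to 4214, 4177 and 4418, while Egr1 fell from 361, 372 and 319 to 67.6, 61.1 and 83.5. Among the relatives of Klf6, 7 rose and 2 fell of 11 tested, the 2 falls being Klf6 and Klf9. Klf2, associated with restraint of inflammatory genes, rose 2.62-fold, from 1187, 1148 and 1205 to 3235, 3117 and 2921, and Klf7 2.34-fold. Klf4, the member closest to Klf2, rose 1.41-fold.

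Genes of effector metabolism followed. Over all genes 34.8% rose and 35.0% fell, with 5.94% rising at least 2-fold. Of 13 nitric oxide, arginine, itaconate and oxysterol genes 8 rose and 4 fell, 7 rose at least 2-fold, and the median was 2.55. Acod1 (chromosome 14, 103046977 to 103056573), which makes itaconate from a mitochondrial intermediate, went from 385, 421 and 492 to 43253, 43055 and 42482 (log2 change 6.64, standard error 0.0671, adjusted p = 1e-16, limma). Nos2, the inducible nitric oxide synthase, went from 29.9, 22.7 and 18.5 to 385, 360.0 and 346 (log2 change 3.91). Genes that supply it also rose: Slc7a2, an arginine transporter, 8.36-fold, Ass1, which rebuilds arginine, 6.60-fold, and Gch1, which starts synthesis of its cofactor, 7.16-fold. Arg1, an arginase that competes for arginine, fell from 2440.0, 2498 and 3366 to 1434, 1391 and 1382, and its mitochondrial relative Arg2 rose 6.63-fold. Ch25h, which makes 25-hydroxycholesterol, went from 24.1, 38.5 and 22.5 to 150.1, 192 and 159.

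Prostanoid genes were divided: 9 rose and 8 fell of 17, against 34.8% and 35.0% of all genes. Ptges, the inducible prostaglandin E synthase, went from 139, 119 and 130.3 to 10071, 9377 and 9638 (log2 change 6.22, standard error 0.0625, adjusted p = 1e-16, limma), and Ptgs2, the inducible cyclooxygenase upstream of it, from 125, 71.0 and 72.4 to 416, 368 and 407. The constitutive cyclooxygenase Ptgs1 fell from 212, 241 and 265 to 10.3, 41.1 and 35.8, and Hpgds, the prostaglandin D synthase, 7.87-fold, from 5774, 5865 and 5407 to 692, 729 and 741. Alox5, which begins leukotriene synthesis, fell from 58.9, 68.1 and 90.9 to 10.3, 10.0 and 9.54. Hpgd, whose enzyme inactivates prostaglandins, was at 24.1, 27.6 and 25.7 untreated, and its 89 untreated reads stood against 1 with TNF, a ratio of 67.1 with a 95% interval of 11.7 to 2681 for counting error.

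Genes of oxidant defence and glucose use mostly rose, while 34.8% of all genes rose and 35.0% fell. Of 33 NRF2 target, glutathione and iron genes 23 rose and 6 fell, and 12 rose at least 2-fold, with a median of 0.71. Slc7a11, which imports cystine for glutathione synthesis, rose 20.4-fold, from 113, 130.2 and 148 to 2604, 2433 and 2969. Sod2, the mitochondrial superoxide dismutase, rose 18.2-fold, from 1249.9, 1244 and 1498 to 24957, 24011 and 23409.7, and Hmox1, the heme oxygenase, 3.75-fold, from 16008, 15959.9 and 15859.7 to 61654, 58979.8 and 58547. Slc40a1, the iron exporter ferroportin, fell from 556, 609.7 and 543 to 249.9, 193 and 225. In the glycolysis and hypoxia list 21 rose and 6 fell of 29, with a median of 0.59. The lactate exporter Slc16a3, the glucose transporter Slc2a1 and the hexokinase Hk2 rose 4.22-fold, 3.63-fold and 3.54-fold. Adm, a hypoxia-induced peptide hormone, fell 12.4-fold, from 344, 315 and 333 to 30.9, 17.8 and 31.0.

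Nuclear genes of oxidative phosphorylation changed by less than 2-fold throughout: 6 rose and 9 fell of 30, against 34.8% and 35.0% of all genes. The other 15 did not pass, and the list median of -0.04 turned to 0.02 without TNF replicate 3. Cytosolic ribosomal protein genes fell in 34 of 34 cases, also by less than 2-fold, with a median of -0.53 and a range of -0.95 to -0.10. Rpl37 went from 3901, 4193 and 3789 to 2549, 2014 and 1671 (log2 change -0.95, standard error 0.107, adjusted p = 2.2e-06, limma). TNF replicate 3 was the lowest library, as it was for Rpl23, Rps16 and Rpl32. In the stress and amino acid list linked to ATF4 6 rose and 15 fell of 24, against 34.8% and 35.0% of all genes. Psat1, of serine synthesis, fell 3.59-fold, and Atf4 itself rose 1.18-fold.

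Lipid genes are given against 34.8% of all genes rising and 35.0% falling. For cholesterol synthesis 3 rose and 13 fell of 23 (median -0.25), for fatty acids and lipid droplets 6 rose and 22 fell of 32 (median -0.68), and for cholesterol efflux and nuclear receptors 8 rose and 13 fell of 25 (median -0.14). The cholesterol exporter Abca1 rose 3.30-fold, from 8904, 7853 and 8562 to 27226, 27243 and 29061, and Nr1h3, encoding the oxysterol receptor LXRα that drives it, 6.86-fold, from 621, 550.5 and 519 to 3769.8, 3953 and 3859. Apoe, the apolipoprotein that accepts exported cholesterol, fell 1.49-fold, from 208421, 204010.4 and 228952 to 145678, 147628 and 138035. Pparg, a lipid-sensing nuclear receptor, fell 6.12-fold, from 1277, 1234 and 1120.3 to 193, 217 and 182, and Nceh1, which frees cholesterol from esters, 3.33-fold. Acsl1, which activates fatty acids, rose 8.61-fold against the trend of its list, from 1386, 1301 and 1339 to 11935, 11224 and 11547.

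Surface receptors changed in both directions. Over all genes 34.8% rose and 35.0% fell, with 5.94% rising and 16.2% falling at least 2-fold. Of 26 scavenger receptors, lectins and Fc receptors 7 rose and 17 fell, with 7 rises and 8 falls of at least 2-fold. Besides Clec4e and Olr1, Clec5a, a receptor that signals through DAP12, rose 17.5-fold, from 154, 146 and 150.4 to 2673, 2668 and 2563. The scavenger receptors Marco and Msr1 rose 3.89-fold and 2.78-fold. The activating Fc receptors for IgG fell: Fcgr4 from 3273, 3549 and 3630.2 to 217, 234 and 199 (log2 change -4.00), Fcgr3 10.1-fold, and Fcgr1 7.69-fold, from 6229, 6355 and 7079 to 849, 910.0 and 795. Fcgr2b, the inhibitory one, rose 2.79-fold. In none of these Fc receptors did the conditions overlap, and over all genes 36.8% lay wholly above and 36.5% wholly below with TNF.

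Genes for the uptake of dying cells and complement fell in 21 of 26 cases and rose in 5, against 35.0% and 34.8% of all genes. The list median was -0.90. Mertk, a receptor for dying cells, went from 1542, 1523 and 1579 to 315, 379 and 353, and Gas6, which bridges it to them, from 6211, 6088 and 7212 to 666, 663 and 725 (9.47-fold). Serping1, an inhibitor of complement activation, fell 15.8-fold. The central complement component C3 rose 7.91-fold, from 2792, 2066 and 3189 to 20766, 20651 and 21274, and Cfb, factor B of the alternative pathway, 25.5-fold, from 9.13, 8.88 and 8.85 to 279, 258 and 225, while C1qa, C1qb and C1qc fell, with log2 changes of -0.71, -0.86 and -1.18.

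Markers of alternative activation fell in 11 of 13 cases, 10 of them at least 2-fold, against 35.0% and 16.2% of all genes. The list median was -2.43. Chil3, a chitinase-like protein, fell 19.1-fold, from 3767, 3519 and 3558 to 198, 179 and 188. The mannose receptor Mrc1 fell 6.94-fold, from 7344, 7733 and 9443 to 1232, 1109 and 1169.9, and Cd163, a scavenger receptor for hemoglobin, from 355, 317 and 291 to 39.0, 28.9 and 69.2. Egr2 and Tgm2 were the 2 members that rose. Macrophage lineage genes were divided, 10 rose and 16 fell of 28, against 34.8% and 35.0% of all genes. The transcription factors Cebpb and Spi1 rose 4.86-fold and 1.98-fold, and Maf fell by 2.52 on the log2 scale. For lysosomal genes 11 rose and 24 fell of 37, against 34.8% and 35.0%, with a median of -0.22. Of these changes 1 rise and 5 falls were at least 2-fold, against 5.94% and 16.2% of all genes. Atp6v0a1, a subunit of the proton pump, fell 4.06-fold, from 6292, 6839.5 and 6083 to 1563, 1546 and 1615.

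Of 36 adhesion and matrix-degrading genes 14 rose and 18 fell, against 34.8% and 35.0% of all genes. Icam1, the endothelial and leukocyte adhesion molecule, rose 19.3-fold, from 771, 754 and 920.0 to 15734, 16068 and 15371, and Itgal, a subunit of its receptor LFA-1, 10.8-fold, from 891, 832 and 914 to 9363, 9447 and 9544. Vcam1, the adhesion molecule for α4 integrins, rose 1.76-fold, from 255, 318 and 293 to 522, 498 and 497. The gelatinase Mmp9 rose 10.7-fold, from 182, 185 and 218 to 2062, 2110.0 and 2069.

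Cell cycle genes fell in 39 of 42 cases, 32 of them at least 2-fold, against 35.0% and 16.2% of all genes, and their median was -1.44. Ccnd1, the cyclin that couples growth factors to the cycle, fell 8.53-fold, from 2043, 1939 and 1745 to 190.3, 218 and 266, and Ccnd2 6.85-fold. Rrm2, which makes deoxynucleotides, went from 677, 663 and 629 to 76.8, 85.6 and 114. Top2a, a topoisomerase of dividing cells, fell 3.29-fold, from 1515, 1495 and 1414 to 432, 424 and 487. The 2 members that rose were Cdkn1a, an inhibitor of cyclin-dependent kinases, 2.85-fold, from 2149.5, 2262 and 2282 to 6105, 6680.0 and 6274, and E2f1, 1.13-fold. Markers of mesenchymal cells fell in the same libraries, with values given next.

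Markers of several other cell types were lower with TNF, and their counts are given against 34.8% of all genes rising and 35.0% falling. The 22 stromal markers together took 0.442 to 0.471% of reads in untreated and 0.0301 to 0.0358% in TNF-treated Klf6-deleted libraries, and 20 of the 21 tested fell, with a median of -3.60. Col1a1, a collagen chain, went from 16769, 15362 and 15801 to 1312, 1211 and 1400.1 and Acta2, smooth muscle actin, from 6804, 6566 and 6180.3 to 499.7, 461 and 510.4. None of the 22 was at 0 in either group. In Lyz2cre cells the same list took 0.0222 to 0.0273% untreated and 0.00511 to 0.00731% with TNF. The 12 neutrophil markers took 0.0597 to 0.0612% and 0.0157 to 0.0179% of reads in Klf6-deleted cells, and 7 of 9 tested fell. Of the 12, 3 were not listed in the TNF table: Ly6g, Retnlg and Cxcr2. Most of the share left with TNF was Csf3r, with 1919, 2253 and 2105 reads, while Ngp had 2, 6 and 12. S100a9, a calcium-binding protein abundant in neutrophils, went from 2232, 2376 and 2084 to 59.6, 35.6 and 52.5. The 16 monocyte and progenitor markers took 0.0726 to 0.0854% and 0.0159 to 0.0175%, and 14 of 16 fell. The 12 endothelial markers took 0.0252 to 0.0259% and 0.0182 to 0.0191%, 6 of 8 tested fell, and 1 of the 12, Cldn5, was not listed in the TNF table. The 9 osteoclast markers went the other way, from 0.0247 to 0.0262% to 0.0316 to 0.0324%, with 3 rises and 2 falls among 5 tested. The gain in this share was carried by Mmp9, with 219, 188 and 271 reads untreated and 1799, 1899 and 1735 with TNF. The 2 falls were Nfatc1, from 1681, 1343 and 1771 to 826, 837 and 854 reads, and Tnfrsf11a, so the share is not a measure of osteoclasts. The 10 dendritic cell markers took 0.103 to 0.110% and 0.0856 to 0.0927%, and 1 rose and 1 fell of 4 tested. Nearly all of this share was Cst3, with 24146, 20523 and 23819 reads untreated and 15306, 16471 and 14217 with TNF. Clec9a had 18, 28 and 18 and 0, 1 and 5 reads, so the share is not a measure of dendritic cells. The part of these cells in the falls of Ltf, Mpo, Cxcl12, the cell cycle genes and other genes they express was not tested.

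**Figure D3:**
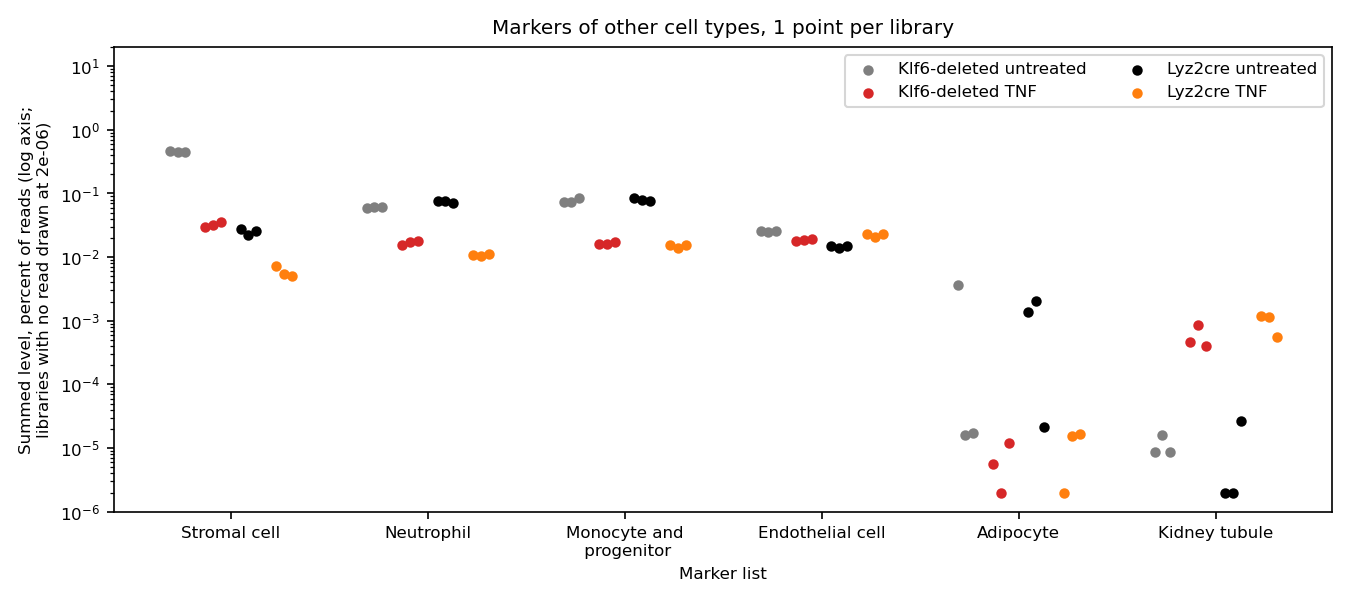
Summed share of reads of marker lists for 6 other cell types, in percent on a log axis, 1 point per library for all 4 groups of 3. Stromal markers take 0.442 to 0.471% of reads in untreated Klf6-deleted libraries (gray) and 0.0301 to 0.0358% with TNF (red), and neutrophil and progenitor markers are lower with TNF in both genotypes. Kidney tubule markers reach 0.000402% or more in every TNF library of Klf6-deleted cells.

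A trace of kidney tubule RNA was seen with TNF in both genotypes. Those 8 markers were chosen after the data were seen. They took 0.00000855 to 0.0000159% of reads in the untreated and 0.000402 to 0.000868% in the TNF libraries of Klf6-deleted cells. In Lyz2cre cells they took 0 to 2.64e-05% untreated and 0.000554 to 0.00117% with TNF. Of the 8, 6 were not listed in the untreated table and counted as 0 there, so the untreated shares rest on Slc34a1 and Lrp2. Of the genes left out because they stood in 1 table only, 37 of 3028 in the untreated table and 3 of 1569 in the TNF table averaged at least 20 reads in Klf6-deleted libraries.

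The control genotype was set beside these cells by a fit over all 4 groups and 13062 genes. In that fit 4058 genes rose (31.1%) and 4607 fell (35.3%) with TNF in Klf6-deleted cells, and 4800 rose (36.7%) and 5252 fell (40.2%) in Lyz2cre cells. At least 2-fold rises numbered 767 (5.87%) and 1607 (12.3%), and at least 2-fold falls 2200 (16.8%) and 2717 (20.8%). The responses differed between genotypes in 6367 genes (48.7%), being higher in Klf6-deleted cells for 2887 (22.1%) and lower for 3480 (26.6%). With libraries scaled to total reads the split was 4930 higher and 2197 lower, and the median difference over all genes moved from -0.02 to 0.20. Differences of at least 2-fold numbered 885 higher (6.78%) and 1288 lower (9.86%).

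Rises of at least 2-fold were shared by 645 genes, which is 84.1% of those of Klf6-deleted and 40.1% of those of Lyz2cre cells. Falls of at least 2-fold were shared by 1654, or 75.2% and 60.9%. Across genes the responses had a Pearson r of 0.75, a description over genes that are not independent replicates. Rising in Lyz2cre and falling in Klf6-deleted cells were 356 genes, 61 of them at least 2-fold in both. The reverse held for 209 genes, 5 of them at least 2-fold in both.

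**Figure D4:**
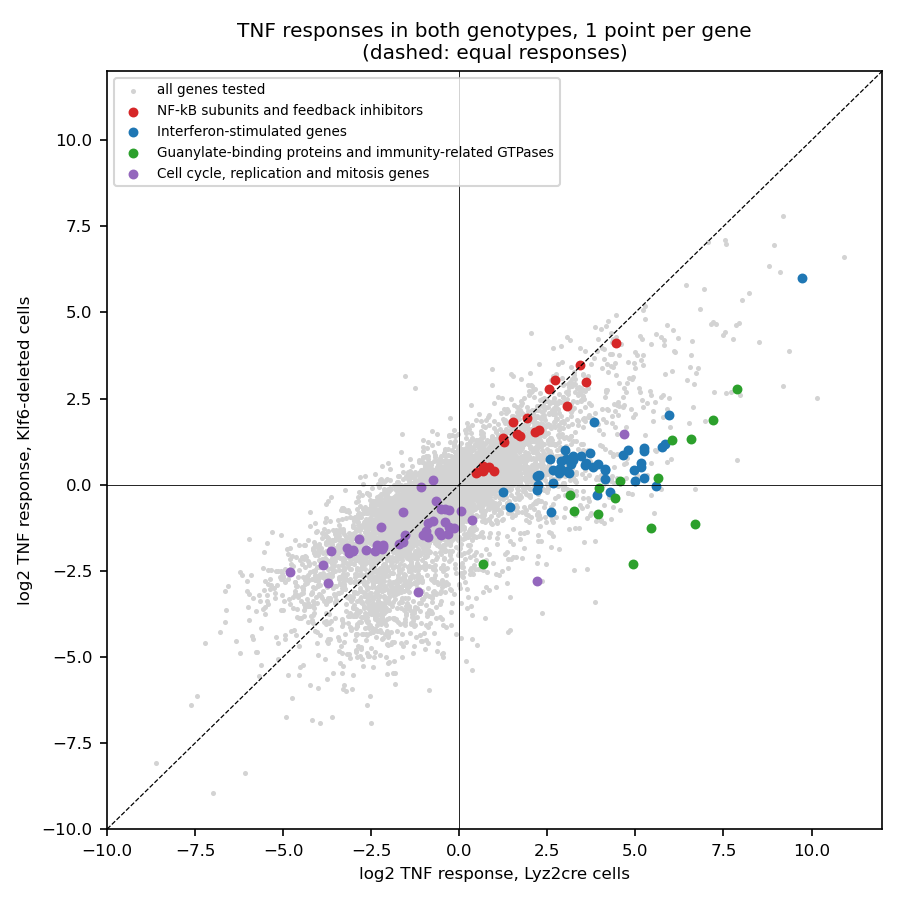
Log2 TNF response of 13062 genes in Lyz2cre cells (horizontal axis) and Klf6-deleted cells (vertical axis), 1 point per gene, from the fit over all 4 groups, with the dashed line marking equal responses. NF-kB genes (red) have a median of 1.49 in Klf6-deleted and 1.68 in Lyz2cre cells, while interferon-stimulated genes (blue) and guanylate-binding proteins and immunity-related GTPases (green) lie to the right of it, with medians of 0.50 and -0.31 in Klf6-deleted against 3.65 and 4.92 in Lyz2cre cells.

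The genes whose response was lowest in Klf6-deleted relative to Lyz2cre cells were Gbp4, Ch25h, Iigp1, Apol9b, Apol9a, Tgtp2, Cxcl11, Ssc5d, Clic5 and Ifi44. On the scale common to all 12 libraries Gbp4 was at 7.94, 10.9 and 13.8 untreated and 1409, 918 and 1367 with TNF in Lyz2cre cells, and at 166, 230.1 and 168 and 89.8, 85.2 and 74.0 in Klf6-deleted cells (log2 difference of responses -7.86, standard error 0.282, adjusted p = 1.3e-14, limma). It thus rose with TNF in the control genotype and fell in the Klf6-deleted cells, whose untreated level was the higher. Iigp1, an immunity-related GTPase, had the same pattern: 108, 120.1 and 104 and 3646, 2839 and 3703 in Lyz2cre, and 1228, 1789.6 and 1113 and 365, 248 and 217 in Klf6-deleted cells (log2 difference of responses -7.24, standard error 0.235, adjusted p = 3e-15, limma). Ch25h rose in both, from 3.97, 7.65 and 3.95 to 7376, 5499 and 7539.7 in Lyz2cre and from 22.2, 35.5 and 20.8 to 135, 173 and 143 in Klf6-deleted cells (log2 difference of responses -7.63, standard error 0.318, adjusted p = 1.3e-13, limma). Ifi44 was at 151, 168 and 194 and 8618, 7428 and 8575 in Lyz2cre cells, and at 547, 485 and 531 and 499.6, 566 and 469.6 in Klf6-deleted cells, where TNF and untreated libraries overlapped. Apol9b, Apol9a, Tgtp2, Ssc5d and Clic5 had log2 differences of -7.15, -6.83, -6.70, -6.09 and -5.84. Cxcl11, with 4.13, 17.0 and 6.43 in Klf6-deleted and 852, 524 and 873 in Lyz2cre TNF libraries, differed by -6.32 (limma adjusted p = 5.4e-07), and did not pass by edgeR (adjusted p = 0.18).

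All 46 interferon-stimulated genes in the fit had a lower response in Klf6-deleted cells, against 26.6% of all genes, as did 15 of 15 guanylate-binding protein and immunity-related GTPase genes and 19 of 20 MHC class I genes. The median differences were -2.96, -4.81 and -1.96. Ifit1 was at 636, 644 and 606 untreated and 39234, 37629 and 41049 with TNF in Lyz2cre cells, and at 782, 789 and 835 and 3192, 3381 and 3176 in Klf6-deleted cells (log2 difference of responses -3.95, standard error 0.0633, adjusted p = 2.4e-19, limma). Isg15 was at 285, 279 and 324 and 19115, 13604 and 18572, and at 596, 542 and 655 and 1504, 1477 and 1089 (log2 difference of responses -4.66, standard error 0.168, adjusted p = 1.4e-14, limma). Untreated levels of both genes were above, and TNF levels below, those of the control genotype in every library. Ifnb1, the interferon-β gene, had 26.7, 28.8 and 31.9 normalized counts in Lyz2cre and 1.03, 1.00 and 0 in Klf6-deleted TNF libraries, and no untreated library was above 1.82 (limma adjusted p = 0.00023 for the difference of responses). No fold is given for Ifnb1 because Klf6-deleted libraries held too few reads. Ifnar1, the receptor chain, responded with 1.22 and 1.24 in Klf6-deleted and Lyz2cre cells (log2 difference -0.03, standard error 0.0529, limma adjusted p = 0.71).

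Of the 20 NF-kB genes, 9 had a lower and 3 a higher response in Klf6-deleted cells, against 26.6% and 22.1% of all genes, and the median difference was -0.17. Nfkbia responded with 3.46 and 3.43 (log2 difference 0.03, standard error 0.0657, limma adjusted p = 0.72) and Rela with 1.24 and 1.28. Nfkb1 differed, rising from 3082, 2881 and 2989 to 13529, 12908 and 13183 in Lyz2cre and from 2368, 2354 and 2272 to 6766, 6689 and 6639.8 in Klf6-deleted cells (log2 difference of responses -0.62, standard error 0.0518, adjusted p = 4.9e-09, limma). The neutrophil chemokine Cxcl2 responded with 5.06 and 5.21 and did not pass (limma adjusted p = 0.56), and Il1b with 2.85 and 2.08 (adjusted p = 0.14). Tnf rose less in Klf6-deleted cells, from 245, 256 and 203 to 4705, 4141 and 4099 against 162, 138 and 169.9 to 9019, 8637 and 8598 (log2 difference of responses -1.60, standard error 0.119, adjusted p = 8.5e-10, limma).

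Several chemokines and effectors had lower responses. Cxcl10 went from 125, 99.4 and 104 to 29633, 22817 and 30825 in Lyz2cre cells and from 109, 119 and 75.6 to 657, 604 and 551 in Klf6-deleted cells (log2 difference of responses -5.38, standard error 0.193, adjusted p = 1.3e-14, limma). The untreated libraries of the genotypes overlapped, and the TNF libraries were far apart. Ccl5 went from 51.6, 85.2 and 35.6 to 22175, 16737 and 21701 and from 136, 143 and 129.7 to 2648, 2544 and 2123 (log2 difference of responses -4.37, standard error 0.269, adjusted p = 5.4e-11, limma). Nos2 went from 9.92, 2.18 and 0 to 2693, 1629 and 2305 in Lyz2cre and from 27.6, 20.9 and 17.0 to 347, 325 and 311 in Klf6-deleted cells (log2 difference -5.50, limma adjusted p = 2.3e-06). Acod1 rose strongly in both, to 68039, 61866 and 69202 and 38955, 38848 and 38193, with untreated levels of 46.6, 55.7 and 13.8 and 355, 388 and 454 (log2 difference -4.32, limma adjusted p = 3.2e-08). Vcam1 went from 362, 392 and 375 to 10453, 9493 and 10867 in Lyz2cre and from 235, 293 and 269.8 to 469.7, 449 and 447 in Klf6-deleted cells (log2 difference of responses -3.98, standard error 0.104, adjusted p = 1.2e-16, limma). Among genes moving in opposite directions, Fcgr1 rose from 5134, 5191 and 5171 to 9527, 6964 and 9837 in Lyz2cre cells and fell from 5744, 5858 and 6526 to 765, 821 and 715 in Klf6-deleted cells. Il10 rose from 102, 100.5 and 104 to 191, 143 and 206 and fell from 53.6, 48.2 and 62.3 to 8.26, 10.0 and 7.51 (log2 difference of responses -3.33, standard error 0.292, adjusted p = 1.1e-08, limma).

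The responses that were highest in Klf6-deleted relative to Lyz2cre cells belonged to Nat8l, Slc40a1, Chp2, Ighm, Slit1, Aatk, Tpbgl, Gab1, Lpin1 and Clec10a. In Lyz2cre cells all 10 were lower with TNF in every library. Slc40a1 fell from 2378, 2544 and 2339.8 to 54.4, 66.7 and 58.7 in Lyz2cre and from 513, 562 and 500.4 to 225, 174 and 203 in Klf6-deleted cells (log2 difference of responses 3.93, standard error 0.142, adjusted p = 1.4e-14, limma). Untreated levels of this iron exporter were lower, and TNF levels higher, in Klf6-deleted cells. Clec10a fell from 2794, 2597 and 2638 to 22.2, 24.2 and 33.2 in Lyz2cre cells and also fell in Klf6-deleted cells, by 3.65 on the log2 scale (log2 difference of responses 2.97, standard error 0.178, adjusted p = 3.6e-11, limma). Lpin1, an enzyme of glycerolipid synthesis, fell from 1150.3, 1083 and 1096 to 36.7, 59.8 and 25.5 and from 387, 470.1 and 442 to 108, 109 and 144. Gab1, a docking protein of growth factor receptors, fell in Lyz2cre cells, from 659, 669.5 and 720.0 to 93.3, 124 and 77.9, and in Klf6-deleted cells was at 228, 215 and 323 untreated and 292, 311 and 279.8 with TNF (log2 difference of responses 3.03, standard error 0.215, adjusted p = 4.3e-10, limma). In the fit over the 6 libraries its response did not pass (limma adjusted p = 0.096), and passed without untreated replicate 3 (log2 change 0.44, adjusted p = 0.0024). Chp2 went from 127, 89.6 and 129 to 0, 0 and 2.55 in Lyz2cre cells. In Klf6-deleted cells it was at 3.06, 3.64 and 9.64 untreated and 0, 0 and 0 with TNF, and its difference did not pass by edgeR or DESeq2 (adjusted p = 0.77 and 0.24).

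Oxidant defence, prostanoid and integrin genes were also compared. Of 33 NRF2 target, glutathione and iron genes, 21 had a higher response in Klf6-deleted cells and 7 a lower one. Over all genes these shares were 22.1% and 26.6%. Hmox1 rose from 12486, 12822 and 12253 to 19819, 23326 and 20694 in Lyz2cre and from 14761, 14712 and 14619 to 55527, 53216 and 52636 in Klf6-deleted cells (log2 difference of responses 1.11, standard error 0.0649, adjusted p = 2.5e-11, limma). The TNF libraries of the genotypes did not overlap. Of 17 prostaglandin and leukotriene genes 11 had a higher and 4 a lower response, against 22.1% and 26.6% of all genes. The lower ones included Ptges, with 6.18 against 9.10. For integrins, adhesion and matrix-degrading genes 24 of 36 were lower, against 26.6% of all genes. Of the 42 cell cycle genes 13 had a higher and 12 a lower response, not far from the 22.1% and 26.6% of all genes. The median responses of this list were -1.47 in Klf6-deleted and -1.12 in Lyz2cre cells. Of 21 stromal markers 17 had a lower response in Klf6-deleted cells, against 26.6% of all genes. The share of reads of stromal markers was also the higher there in both conditions.

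**Figure D5:**
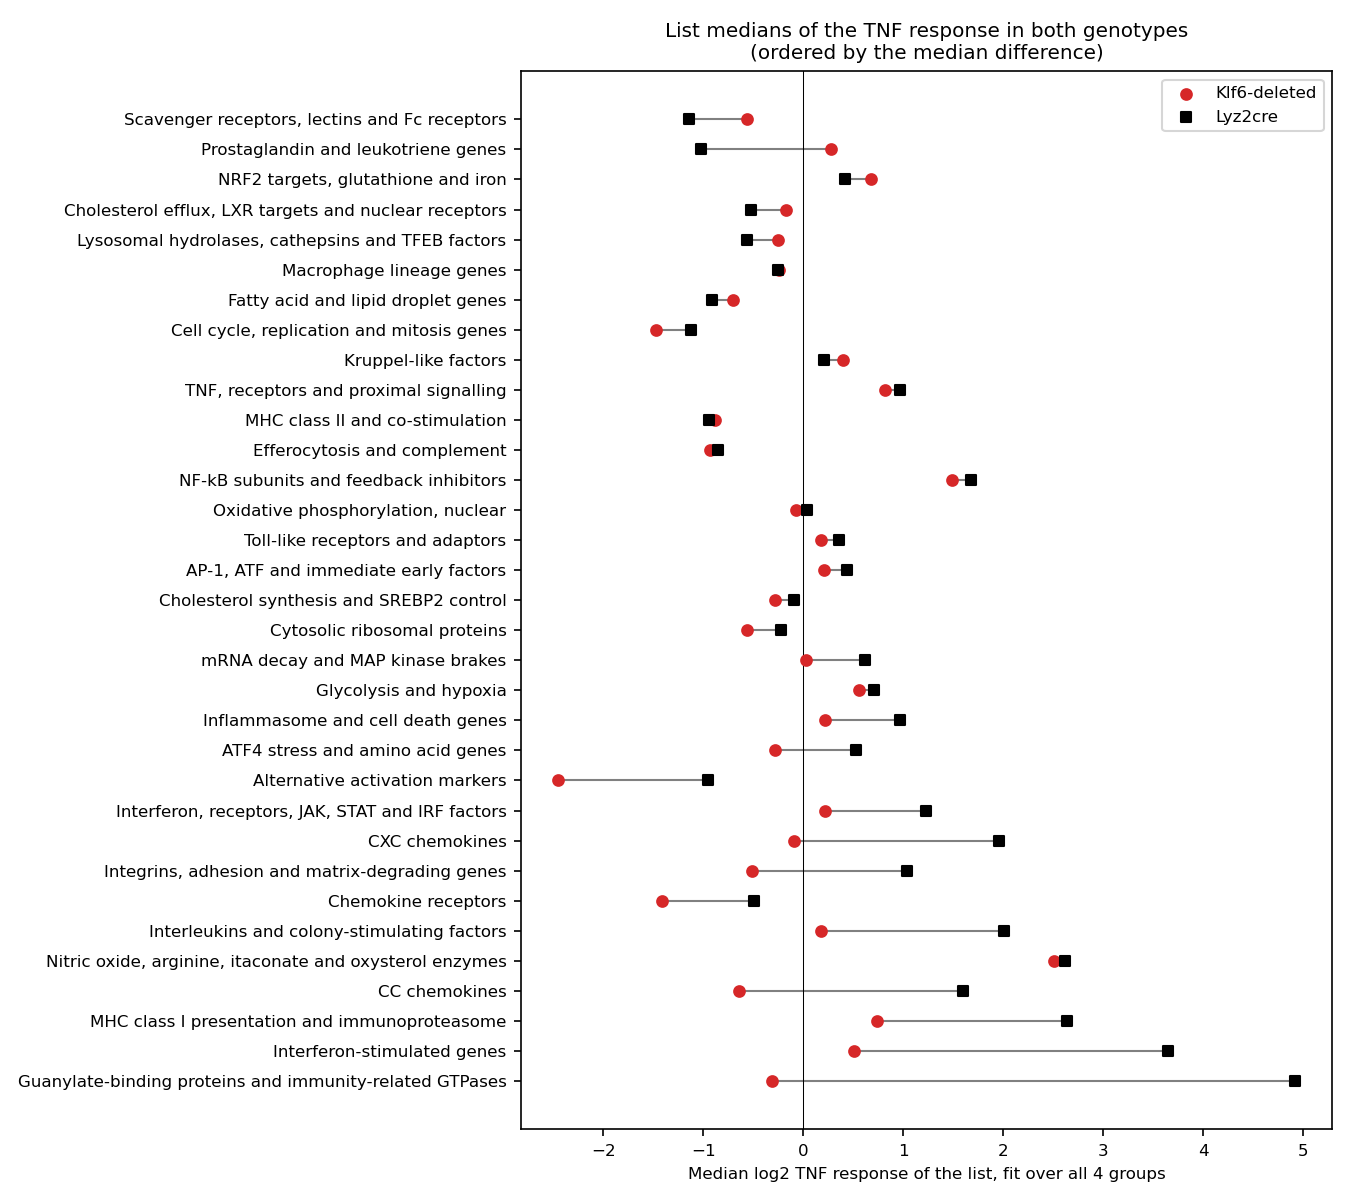
Median log2 TNF response of 33 gene lists in Klf6-deleted (red circles) and Lyz2cre (black squares) macrophages from the fit over all 4 groups, ordered by the median difference between the genotypes. Among these, the 3 with the most negative median difference are guanylate-binding proteins and immunity-related GTPases (medians -0.31 against 4.92), interferon-stimulated genes (0.50 against 3.65) and MHC class I genes (0.73 against 2.63), while the NF-kB list lies at 1.49 against 1.68.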

How the data were processed

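Total RNA of mouse bone marrow-derived macrophages was sequenced from TruSeq Stranded Total RNA libraries with Ribo-Zero Gold depletion and 150 ng of input, per the labels' protocols. The authors deposited 1 table of normalized signal values per condition. Their values fit gene counts divided by 1 factor per library. The submitters' processing notes name GRCm39, mm10 and Cufflinks with no role. With the aligner, counter and strand setting not given in the sources used here, antisense and overlapping genes cannot be told apart. Dividing each deposited signal column by the worth of 1 read gave whole reads for every value (tolerance 0.001, largest deviation 5.2e-05). The 19868 genes listed in both tables, 19845 of them with a symbol, were scaled jointly by medians of ratios. Gene positions are from the GENCODE annotation of GRCm38 and promoters from RefSeq (GRCm38.p6).

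Log2(normalized count + 1) values of genes with at least 1 CPM in 3 libraries were fitted with limma 3.58.1 in R 4.3.3 and adjusted by Benjamini-Hochberg over all genes tested. The TNF response of Klf6-deleted cells was fitted on its 6 libraries. The difference of responses between genotypes was an interaction term in a fit over all 12. An exact permutation test of 3 against 3 libraries cannot give a two-sided p below 0.1. Alternatives were edgeR 4.0.16, DESeq2 1.42.0, scaling by TMM or total reads, values as deposited, a pseudocount of 10, other filters, a replicate block, all 12 libraries in 1 fit, a threshold of 0.01, and leaving out each library. Python 3.11.15 with numpy 2.4.6, pandas 2.3.3 and matplotlib 3.10.9 was used for tables and figures. The fits were tested on simulated data with 200 changed genes and 1 fixed spread. Far more genes changed here (69.8% called), so that test checks the code and not the error rates or scaling of these data. Intervals are 95% and cover counting error only, since reads carried no molecular identifiers.

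Replicates of a group differed by more than sampling noise. Same-numbered untreated and TNF libraries of Klf6-deleted cells had correlations of -0.145, 0.0227 and -0.0968 in their deviations over 7933 genes, so the numbers were not taken to pair libraries. The members and the 42 gene lists were chosen with earlier results of these data known. Genes named by rule were Klf6, Lyz2 and Tnf, the 10 largest rises and falls, and the 10 largest differences of responses each way. At most 5 members of a list were added, 219 genes in all. Rises, falls and differences needed a mean of at least 100 normalized counts in the highest group, and predicted or unnamed genes were left out. Libraries that did not overlap were required for the rises and falls only. Which of these are printed, and the other list members named, were picked after their values were seen. H2-Q, Bcl2a1, Apol9, Gbp, Tgtp, Lyz and Ifi205-like copies can share reads and are uncertain.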

Additional observations from a re-analysis of the deposited data

Results flagged for a closer look

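The TNF responses of Klf6-deleted and Lyz2cre cells differed by the interaction test (limma with Benjamini-Hochberg adjustment) in 2887 genes with a higher and 3480 with a lower response in Klf6-deleted cells. The named genes with the most positive log2 differences were Nat8l (4.39), Slc40a1 (3.93), Chp2 (3.68), Ighm (3.62), Slit1 (3.58), Aatk (3.58), Tpbgl (3.27), Gab1 (3.03), Lpin1 (2.97) and Clec10a (2.97). Those with the most negative differences were Gbp4 (-7.86), Ch25h (-7.63), Iigp1 (-7.24), Apol9b (-7.15), Apol9a (-6.83), Tgtp2 (-6.70), Cxcl11 (-6.32), Ssc5d (-6.09), Clic5 (-5.84) and Ifi44 (-5.61).

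Signals were also present outside the comparison. In 1 untreated Klf6-deleted library, replicate 1, 8 adipocyte markers chosen after the data were seen took 0.00359% of reads. Cidec and Cfd, both typical of adipocytes, had 93 and 90 reads there and 0 in the other untreated Klf6-deleted libraries. The same markers took 0.00138 and 0.00204% of reads in untreated Lyz2cre replicates 1 and 2, with 67 and 100 reads of Cfd and 22 and 27 of Cidec. Kidney tubule markers reached 0.000868% of reads in a Klf6-deleted TNF library, and Kap, a kidney androgen-regulated gene listed in the TNF table only, had 37, 61 and 25 reads. Of the genes in the untreated table only, 37 averaged at least 20 reads in Klf6-deleted libraries, led by Tox2 with 89, 60 and 72 reads and Elfn1 with 69, 59 and 80.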

How the results depend on the processing

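With the values as deposited, 1891 genes rose and 7140 fell with TNF in Klf6-deleted cells, 20.9% of calls being rises against 49.9% on the joint scale. Scaled to total reads, 40.1% were rises, and the responses differed between genotypes in 4930 genes with a higher and 2197 with a lower response in Klf6-deleted cells, 69.2% higher against 45.3%. A filter of 10 CPM tested fewer genes, 9075 for the response and 9280 for the difference. It left 2914 falls, 957 falls of at least 2-fold, and 499 higher and 795 lower differences of at least 2-fold. Leaving out each library gave 4025 to 4254 rises, 3524 to 4348 falls, 670 to 773 rises and 1430 to 2076 falls of at least 2-fold, 2570 to 2979 higher and 3196 to 3458 lower responses, and 818 to 937 higher and 1119 to 1287 lower responses of at least 2-fold. Fits of the Klf6-deleted response without an untreated library tested 12000 to 12017 genes, since genes below 1 CPM in every TNF library could not reach the filter. They gave 3524 to 3605 falls, 1430 to 1438 of them at least 2-fold. Fits without a TNF library gave 4244 to 4348 and 2060 to 2076. The low ends of the falls therefore do not measure dependence on 1 library. Of the counts over all genes, 144 stayed within 1.5 times under the alternatives and 8 did not. Named genes that a fit did not test have no value in it, and were not checked there. TMM scaling had 237 such values, the filter of 10 CPM 191, and leaving out untreated Klf6-deleted replicate 1 203. Ltf, Mpo and Islr were not tested when an untreated library was left out. Of the values of named genes, 3718 kept their side of the threshold and, where past it, their direction, 7 no longer passed, 1 newly passed and 0 reversed. The 7 were Itgax (log2 change 0.33 scaled to total reads, 0.13 as deposited, 0.33 without TNF replicate 1 and 0.27 without untreated replicate 3), Chp2 (log2 difference 1.46 by edgeR and 2.34 by DESeq2) and Cxcl11 (-6.06 by edgeR). The causes were not tested. Of the list counts 1272 stayed within 1.5 times and 72 did not. Of the medians, over lists and over all genes, 538 moved by less than 0.1 on the log2 scale and 167 by more.

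With the replicate number as a block, 4289 genes rose and 4362 fell, 757 and 2063 of them at least 2-fold, and responses were higher in 2852 and lower in 3438 genes, 887 and 1290 of them at least 2-fold. Genes of few reads were limited: Ifnb1 did not reach the filter in Klf6-deleted cells, and ratios against 1 to 3 reads have wide intervals. The TNF libraries held 16.9 to 18.1 M reads in Klf6-deleted and 18.2 to 20.9 M in Lyz2cre cells.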
